A study of Homo sapiens with 9 samples.

Results

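Chemokine and chemokine receptor genes were examined in blood-forming cells derived from the human embryonic stem cell line H1, an established cell line. The members were chosen by a rule on gene names, with earlier results of these data known. The rule took every gene of the deposited count table whose symbol is CCL, CXCL, CCR or CXCR followed by a number. It also took CX3CL1, CX3CR1, XCL1, XCL2 and XCR1. The rule gave 55 of the 21229 genes in the table, 38 ligands and 17 receptors. The 9 RNA sequencing libraries formed 3 groups of 3: CD90+ cells with GATA2 overexpression, CD90+ cells of control genotype, and CD38+ cells of control genotype. CD90 is the product of THY1 and marks primitive progenitors, CD38 is found on more mature ones, and GATA2 is a transcription factor of blood stem cells and mast cells. The vector, its promoter, the length of expression and the number of clones are not stated by any source used here, nor is it said whether replicates were separate cultures or sorts. The p-values below therefore measure only the spread between these libraries, and GATA2 overexpression cannot be told apart from any other difference between the cultures it was compared with.

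Chemokines are small secreted proteins that attract cells along a gradient, and most signal through membrane receptors coupled to inhibitory G proteins. They are named for the spacing of their first cysteines, as CC, CXC, CX3C or C chemokines, and 1 receptor often binds several ligands. In bone marrow, CXCL12 acting on CXCR4 retains blood stem cells. Monocytes and macrophages make many of the inflammatory CC ligands and the neutrophil-attracting CXC ligands, and monocytes carry CCR1, CCR2 and CX3CR1.

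The CXC ligands that attract neutrophils, CXCL1, CXCL2, CXCL3, CXCL5, CXCL6 and CXCL8, lie together on chromosome 4 and are well-known targets of NF-kappa B, a transcription factor of inflammation. Their promoters are shown because these neighbours moved in opposite directions with GATA2 overexpression, as described further on. Each run is the 120 bases before the RefSeq start of the gene (GRCh38.p14), 5′ to 3′ on the gene's strand, with every match to the kappa B pattern GGNNNTTCC on either strand in capitals. CXCL2 and CXCL3 rose with GATA2 overexpression in CD90+ cells and the other 4 genes fell.
CXCL2 (chr4:74099196-74099315, minus strand): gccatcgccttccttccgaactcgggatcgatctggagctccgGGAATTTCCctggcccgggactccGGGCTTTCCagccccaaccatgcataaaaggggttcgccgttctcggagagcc
CXCL3 (chr4:74038690-74038809, minus strand): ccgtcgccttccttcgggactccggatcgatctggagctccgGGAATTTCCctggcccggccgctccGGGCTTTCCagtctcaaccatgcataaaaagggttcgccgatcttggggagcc
CXCL1 (chr4:73869273-73869392, plus strand): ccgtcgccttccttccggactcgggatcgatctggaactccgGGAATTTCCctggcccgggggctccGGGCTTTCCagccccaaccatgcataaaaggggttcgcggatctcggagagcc
CXCL5 (chr4:73998678-73998797, minus strand): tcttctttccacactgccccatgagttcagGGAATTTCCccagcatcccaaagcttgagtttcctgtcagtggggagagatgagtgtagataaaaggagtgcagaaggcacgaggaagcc
CXCL6 (chr4:73836558-73836677, plus strand): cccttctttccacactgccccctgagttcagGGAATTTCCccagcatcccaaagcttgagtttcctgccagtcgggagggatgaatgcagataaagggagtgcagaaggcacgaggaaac
CXCL8 (chr4:73740449-73740568, plus strand): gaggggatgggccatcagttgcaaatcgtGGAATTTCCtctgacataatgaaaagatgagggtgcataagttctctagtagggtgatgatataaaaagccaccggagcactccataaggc
All 6 promoters held the pattern, CXCL1, CXCL2 and CXCL3 at 2 places each and the others at 1. The pattern stood in 20.1% of the 35116 promoters of the RefSeq table, each 300 bases long (250 before to 50 after the start), and in 14 of the 41 member genes with a promoter there. Over the same 300 bases, a GATA site (the letters GATAA, either strand) was found in CXCL5, CXCL6 and CXCL8, in 17 of the 41 member genes and in 22.7% of all promoters. The AP-1 site TGANTCA, the letters bound by Fos and Jun proteins, was found in CXCL8 among these 6, in 8 of the 41 member genes and in 7.71% of all promoters. These matches are letters in a window and were not measured as bound sites.

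**Figure D1:**
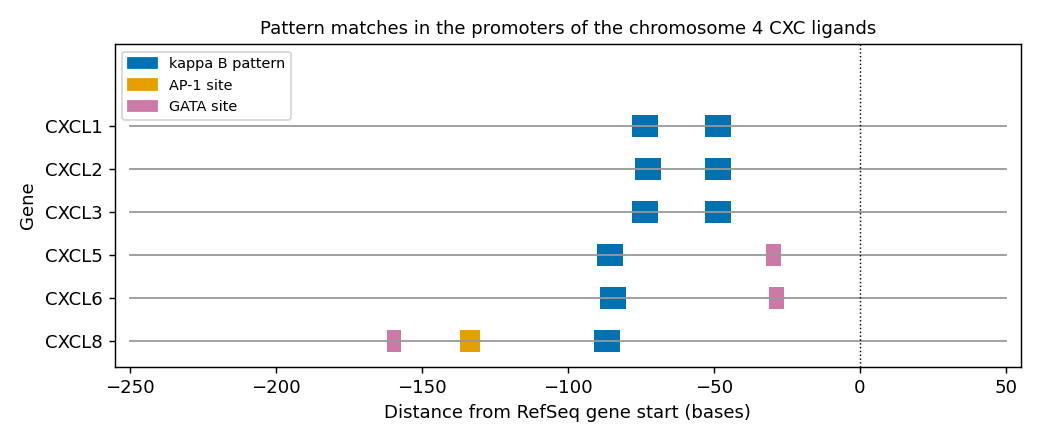
Matches to 3 patterns in the promoters of the 6 neutrophil-attracting CXC ligands, by distance in bases from the RefSeq gene start (dotted line); each coloured block is 1 match, and the grey line spans the 300 bases searched. CXCL1, CXCL2 and CXCL3 share a pair of kappa B matches, and CXCL5 and CXCL6 share a kappa B match and a GATA match.

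The libraries held 37500192 to 39582736 counts assigned to genes with GATA2 overexpression, 42577569 to 47261093 among CD90+ controls and 42695005 to 45561088 among CD38+ controls. Levels are normalised read counts, the counts of a gene in every 1000000 of its library (CPM) after TMM scaling, and a mean stands with its SD over 3 libraries. GATA2 itself stood at 376 ± 12.8 CPM in GATA2 overexpression CD90+, 87.3 ± 1.93 CPM in CD90+ control and 569 ± 16.3 CPM in CD38+ control cells, so the overexpressing cells remained below the CD38+ cells. THY1 had 3.06 ± 0.439 and 4.43 ± 0.632 CPM in the 2 CD90+ groups and 0 counts in CD38+ control cells, and CD38 had 2.23 ± 0.514, 4.37 ± 0.382 and 122 ± 2.40 CPM in GATA2 overexpression CD90+, CD90+ control and CD38+ control cells. The groups differed in markers of blood cell types as well. The 20 macrophage and monocyte markers summed to 549 to 607 CPM per library in GATA2 overexpression CD90+, 2678 to 2719 CPM in CD90+ control and 3599 to 3639 CPM in CD38+ control cells, with none of them at 0 in any group.

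Over all 55 members, RNA summed to 520.0 ± 17.5 CPM with GATA2 overexpression, 1061 ± 20.8 CPM among CD90+ controls and 2630.1 ± 181 CPM among CD38+ controls. These sums leave out the platelet chemokines PF4 and PPBP, whose symbols the rule does not take. PF4 averaged 2012 ± 37.7, 1077 ± 1.52 and 69.2 ± 4.63 CPM in the same groups. PPBP averaged 783 ± 83.7, 838 ± 18.4 and 104 ± 5.67 CPM. The order of the groups by sum therefore holds for the 55 members only. Receptor RNA alone was 35.2 ± 0.673 CPM in GATA2 overexpression CD90+, 350.3 ± 3.70 CPM in CD90+ control and 473 ± 5.28 CPM in CD38+ control cells. The genes behind these sums differed by group. In GATA2 overexpression CD90+ cells CXCL2 and CXCL3 made up 26.8% and 25.2% of the sum over the 55 members. In CD90+ control cells the leading genes were CXCL8 with 16.5% and CX3CR1 with 9.81%, and in CD38+ control cells CCL2 with 40.2% and CXCL8 with 24.2%. Of the 55 members, 23 reached 1 CPM in GATA2 overexpression CD90+, 32 in CD90+ control and 34 in CD38+ control cells, and 37 did so in at least 1 group.

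Per kilobase of exon, by the exon length of each gene in GENCODE 29, the order of the ligands changed between groups. A rank between genes on this scale depends on the length used. By these lengths CXCL2 led with 93.03 ± 1.70 CPM per kilobase in GATA2 overexpression CD90+ cells. CXCL3 at 59.1 ± 1.17 and CXCL8 at 53.7 ± 5.19 CPM per kilobase came next, within about 1 SD of each other. CXCL3 had a longer exon length than CXCL2, yet fewer 50-base stretches in its transcripts. The order of CXCL2 and CXCL3 is therefore left undecided in both CD90+ groups. In CD90+ control cells CXCL8 led with 76.8 ± 1.18 CPM per kilobase, followed by CXCL2 at 60.5 ± 1.13, with CCL4L2 at 43.8 ± 10.7 and CXCL3 at 43.4 ± 0.935 within their spread. In CD38+ control cells CCL2 stood first at 533 ± 44.7 CPM per kilobase and CXCL8 second at 280.3 ± 17.2. Among receptors, CXCR4 led in GATA2 overexpression CD90+ cells at 6.35 ± 0.256 CPM per kilobase and in CD38+ control cells at 111 ± 0.995 CPM per kilobase. In CD90+ control cells CX3CR1 (28.5 ± 0.779), CXCR4 (28.3 ± 1.25), CCR1 (27.3 ± 0.455) and CCR7 (27.3 ± 0.118 CPM per kilobase) lay close together.

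**Figure D2:**
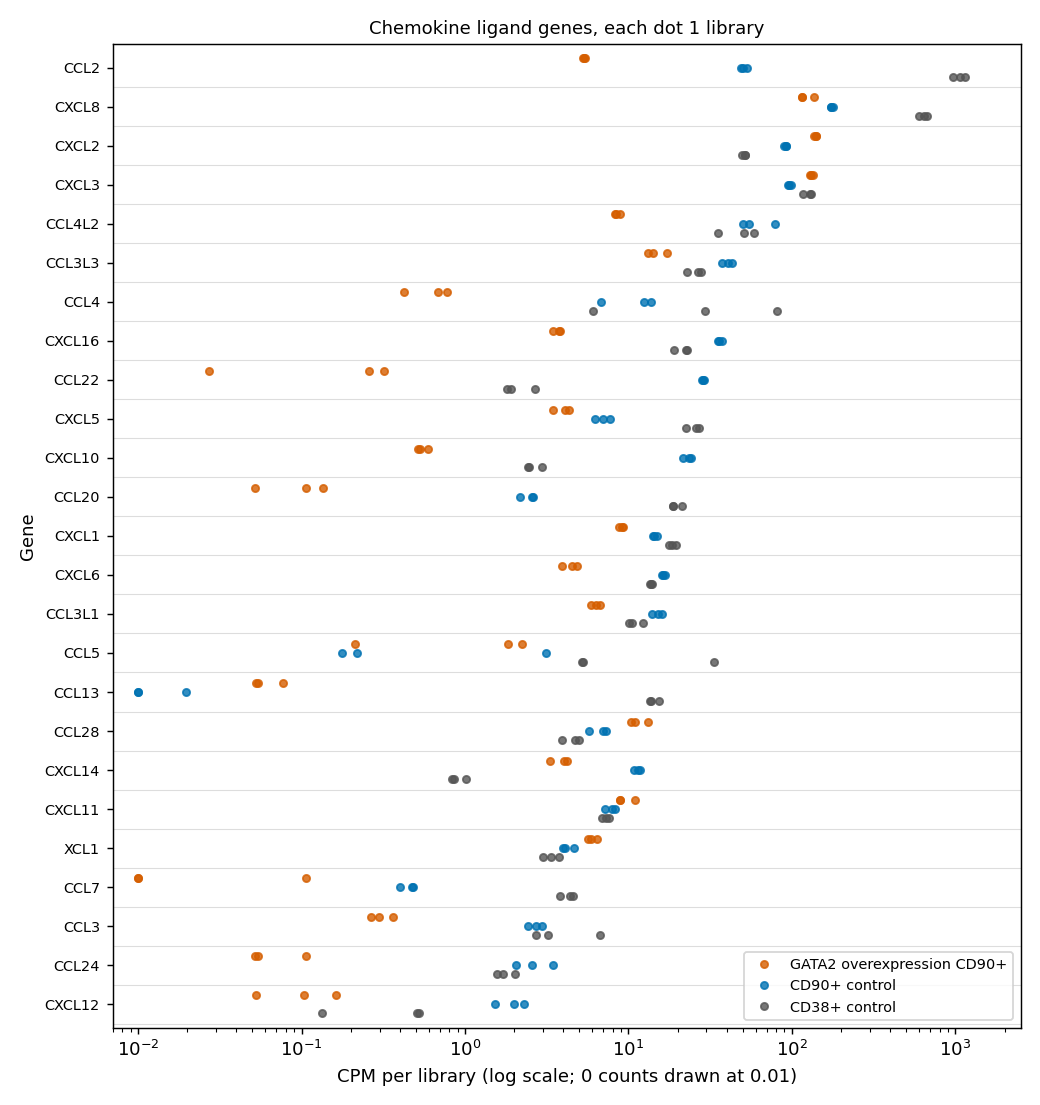
CPM of the 25 ligand genes that reached 1 CPM in at least 1 group, on a log scale, each dot 1 library; GATA2 overexpression CD90+ in orange, CD90+ control in blue, CD38+ control in grey. CCL22, CXCL10 and CCL24 have their orange dots far to the left, whereas CXCL2 and CCL28 have them to the right of the others.

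The effect labelled as GATA2 overexpression was read within the CD90+ fraction. Chemokine and receptor genes mostly fell: 32 of the 44 members tested were lower in GATA2 overexpression CD90+ than in CD90+ control cells (72.7%, where 39.6% of all 16232 genes tested were called lower) and 6 were higher (13.6%, where 38.0% of all genes were). The 6 were CCL13, CCL28, CXCL2, CXCL3, CXCL11 and XCL1. The median log2 fold change was -2.52 over the members and -0.04 over all genes. At a change of 2-fold or more, 29 members were lower (65.9%, against 21.4% of all genes) and 1, CCL13, was higher (2.27%, against 7.98%). A call is an adjusted p under 0.05 in the quasi-likelihood test of edgeR, with Benjamini-Hochberg adjustment over all genes. All 19 macrophage and monocyte markers tested fell as well, with a median log2 fold change of -5.14, and of the 18 mast cell, basophil and eosinophil markers 16 rose and 1 fell. Their part in the chemokine changes was not tested, and in bulk RNA fewer cells of a type and less RNA per cell cannot be told apart.

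Among the CC ligands, 13 of 17 tested fell and 2 rose, where 39.6% and 38.0% of all genes did. CCL22, a ligand of CCR4 made by macrophages and dendritic cells, had 0.258, 0.318 and 0.0272 CPM in GATA2 overexpression CD90+ libraries, against 28.9, 28.6 and 28.2 CPM in CD90+ control. Every overexpressing library lay under 1 CPM and every control library above 28, and the fall was 139-fold (log2 fold change -7.11, SE 0.25, adjusted p = 6.95e-14). CCL24, an eotaxin that attracts eosinophils through CCR3, had 0.0517, 0.106 and 0.0544 CPM in GATA2 overexpression CD90+ libraries, against 2.04, 3.45 and 2.56 CPM in CD90+ control. These libraries did not overlap either, and CCL24 fell 36.5-fold (log2 fold change -5.19, SE 0.36, adjusted p = 6.79e-10). The macrophage inflammatory proteins fell too. CCL3, which binds CCR1 among other receptors, averaged 0.309 ± 0.0491 CPM in overexpressing and 2.71 ± 0.265 CPM in control cells, a fall of 8.68-fold (log2 fold change -3.12, SE 0.35, adjusted p = 3.68e-07). CCL4 averaged 0.626 ± 0.182 CPM in overexpressing and 11.04 ± 3.77 CPM in control cells (log2 fold change -4.13, SE 0.83, adjusted p = 2.52e-04), a call that was lost with limma voom (adjusted p = 0.14). For the copy CCL4L2 the means were 8.52 ± 0.324 CPM and 61.2 ± 14.96 CPM (log2 fold change -2.85, SE 0.18, adjusted p = 1.62e-10).

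CCR2, the receptor that brings monocytes out of the marrow, binds CCL2, CCL7 and CCL13, of which the first 2 were lower and CCL13 was called higher. CCL2, the main monocyte chemoattractant, had 5.42, 5.27 and 5.33 CPM in GATA2 overexpression CD90+ libraries, against 53.4, 49.9 and 48.9 CPM in CD90+ control. The groups were separated in every library, and the fall was 9.49-fold (log2 fold change -3.25, SE 0.08, adjusted p = 6.76e-16). CCL7, a related monocyte attractant, had 0, 4 and 0 counts in the 3 overexpressing and 24, 22 and 24 counts in the 3 control libraries (log2 fold change -3.57, SE 0.59, adjusted p = 3.40e-05). Its size rests on the second overexpressing library, since without it the group had 0 counts, at least 11.3-fold lower by a floor of 3 counts over the group. CCL20, which attracts cells through CCR6, averaged 0.0978 ± 0.0427 CPM in overexpressing and 2.44 ± 0.247 CPM in control cells, a fall of 24.4-fold (log2 fold change -4.61, SE 0.25, adjusted p = 2.10e-11). The copies CCL3L1 and CCL3L3 fell 2.39-fold and 2.71-fold, with adjusted p of 8.25e-09 and 1.87e-10 by the same test.

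CCL28, an epithelial ligand of CCR10 and CCR3, rose. It had 13.2, 10.9 and 10.3 CPM in GATA2 overexpression CD90+ libraries, against 7.27, 5.73 and 6.99 CPM in CD90+ control, with no overlap, and the rise was 1.73-fold (log2 fold change 0.79, SE 0.13, adjusted p = 5.03e-05). Of the 16 epithelial and endoderm markers tested, 1 rose and 15 fell, where 38.0% and 39.6% of all genes did. The part of these markers in the CCL28 change was not tested. CCL13, another monocyte and eosinophil attractant, was called higher on very few reads, 7 counts in the 3 overexpressing and 1 count in the 3 control libraries. The ratio of CCL13 was 9.62 (95% interval 1.24 to 434), an interval that covers counting error only. CCL5, an attractant of T cells and monocytes, was not called (adjusted p = 0.788): it had 2.22, 0.212 and 1.82 CPM in GATA2 overexpression CD90+ libraries, against 0.177, 0.218 and 3.14 CPM in CD90+ control. The third control library was far above the other two and overlapped the overexpressing ones, and without it CCL5 was called higher with overexpression (log2 fold change 2.83, adjusted p = 0.0378).

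The CXC ligands were divided. Of the 11 tested, 8 fell and 3 rose, where 39.6% and 38.0% of all genes did. CXCL2 and CXCL3, neutrophil attractants that act through CXCR2, were 2 of those that rose, and their promoters are printed above. CXCL2 had 141, 137 and 141 CPM in GATA2 overexpression CD90+ libraries, against 92.2, 91.3 and 88.9 CPM in CD90+ control. All overexpressing libraries were higher, by 1.54-fold (log2 fold change 0.62, SE 0.03, adjusted p = 8.19e-12). CXCL3 had 131, 129 and 134 CPM in GATA2 overexpression CD90+ libraries, against 96.2, 94.4 and 98.6 CPM in CD90+ control, again without overlap, a rise of 1.36-fold (log2 fold change 0.45, SE 0.04, adjusted p = 1.11e-08).

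The other 4 neutrophil attractants of the same chromosomal group fell. CXCL8, the best known of them, averaged 122 ± 11.8 CPM in overexpressing and 175 ± 2.68 CPM in control cells (log2 fold change -0.52, SE 0.05, adjusted p = 1.22e-07). CXCL1 averaged 9.05 ± 0.236 and 14.4 ± 0.393 CPM in overexpressing and control cells (log2 fold change -0.67, SE 0.08, adjusted p = 5.39e-07). CXCL5 averaged 3.96 ± 0.473 and 6.97 ± 0.744 CPM in the same order (log2 fold change -0.82, SE 0.12, adjusted p = 8.87e-06). The deepest fall of the 4 was in CXCL6, at 4.42 ± 0.463 CPM in overexpressing and 16.3 ± 0.365 CPM in control cells (log2 fold change -1.88, SE 0.10, adjusted p = 9.11e-12). CXCL1 fell while CXCL2 and CXCL3 rose. The 3 genes carry a like pair of kappa B matches, whose part in these changes was not tested.

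CXCL10 and CXCL11 are induced by interferon and bind CXCR3. CXCL10 had 0.594, 0.530 and 0.516 CPM in GATA2 overexpression CD90+ libraries, against 21.4, 24.1 and 23.3 CPM in CD90+ control. Overexpressing libraries were all under 1 CPM and control libraries all above 21, a fall of 41.7-fold (log2 fold change -5.38, SE 0.14, adjusted p = 1.51e-15). CXCL11 had 8.89, 8.88 and 10.9 CPM in GATA2 overexpression CD90+ libraries, against 7.19, 7.93 and 8.32 CPM in CD90+ control, close but not overlapping. Its rise of 1.22-fold (log2 fold change 0.29, SE 0.11, adjusted p = 0.0292) was small, and it was no longer called with 5 other settings (RLE, library size only, upper-quartile, the 1 CPM filter and DESeq2, adjusted p up to 0.741) or without the first or second control library or the third overexpressing library (0.109, 0.0512 and 0.185).

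CXCL12, the ligand that holds blood stem cells in their niche, averaged 0.106 ± 0.0551 CPM in overexpressing and 1.93 ± 0.383 CPM in control cells and fell 17.8-fold (log2 fold change -4.15, SE 0.46, adjusted p = 3.30e-07). CXCL16, a membrane-anchored ligand of CXCR6, averaged 3.68 ± 0.189 and 36.04 ± 0.991 CPM in overexpressing and control cells and fell 9.78-fold (log2 fold change -3.29, SE 0.08, adjusted p = 1.17e-15). CXCL14, made constitutively by many epithelia, averaged 3.85 ± 0.473 and 11.3 ± 0.509 CPM in the same order and fell 2.94-fold (log2 fold change -1.56, SE 0.13, adjusted p = 1.11e-08). XCL1, a C chemokine that attracts dendritic cells through XCR1, had 6.41, 5.64 and 5.93 CPM in GATA2 overexpression CD90+ libraries, against 4.10, 3.95 and 4.67 CPM in CD90+ control. No libraries overlapped and the rise was 1.41-fold (log2 fold change 0.50, SE 0.14, adjusted p = 0.00371). It was not called with library size as the only scaling (adjusted p = 0.11). The markers of mesenchymal cells, known makers of CXCL12, fell together with CXCL12, 15 of the 16 tested, where 39.6% of all genes did. Their sums were 305 to 324 CPM in overexpressing and 1253 to 1267 CPM in CD90+ control libraries. Against CD38+ control cells, CXCL12 was called lower with overexpression (0.106 ± 0.0551 and 0.388 ± 0.221 CPM). This call rested on few reads, 4, 2 and 6 counts in overexpressing and 19, 5 and 21 counts in CD38+ control libraries. The libraries overlapped, at 0.163 CPM in the third overexpressing and 0.134 CPM in the second CD38+ library. In that comparison 11 of the 16 mesenchymal markers were higher and 3 lower, where 43.3% and 39.9% of all genes tested were. The part of these markers in the CXCL12 changes was not tested.

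**Figure D3:**
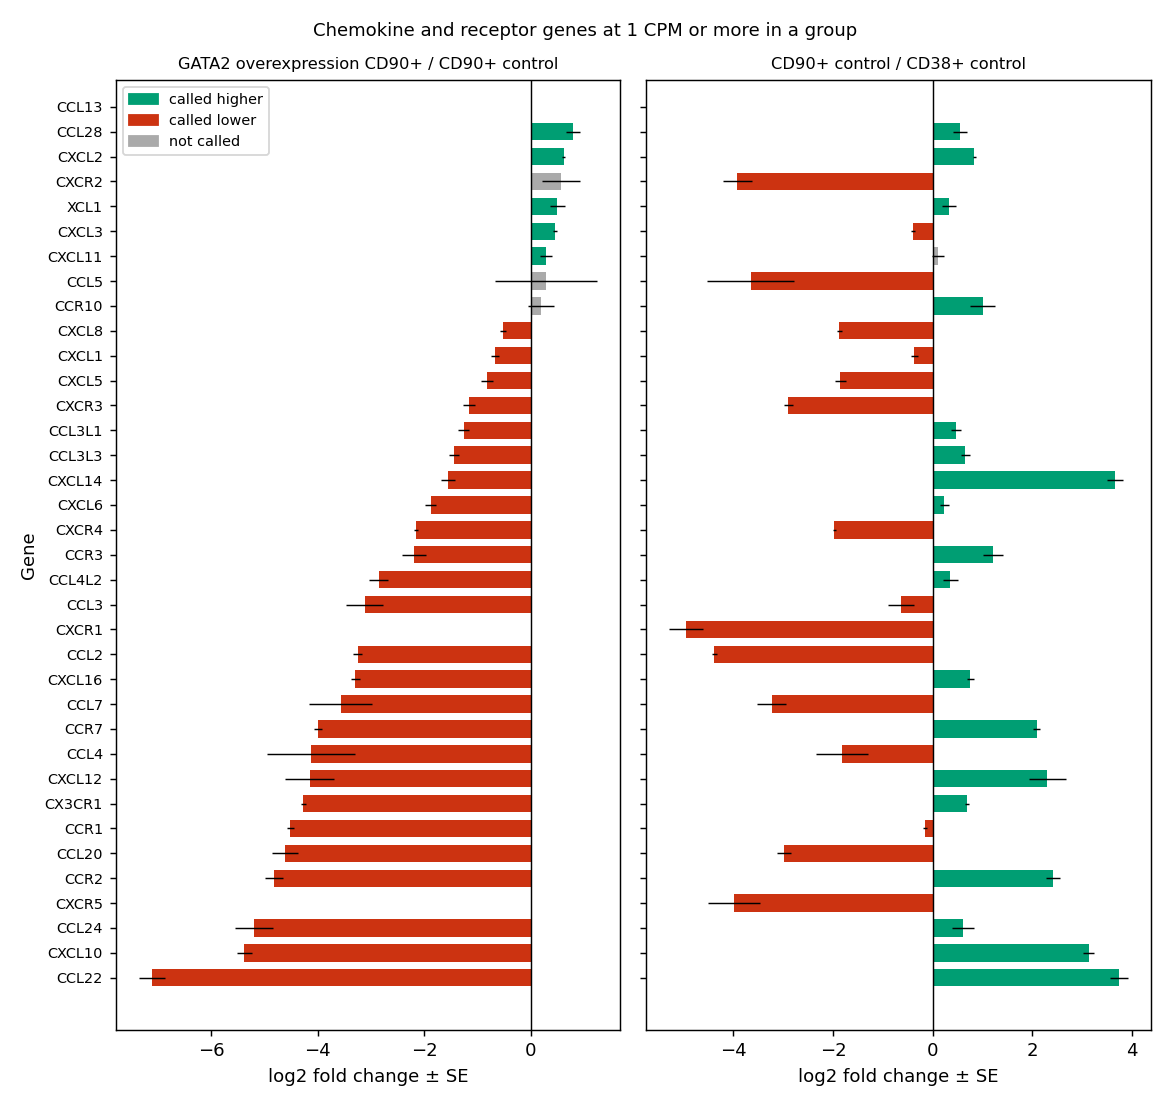
Log2 fold changes with standard errors (edgeR) of 36 members at 1 CPM or more in a group, for GATA2 overexpression CD90+ over CD90+ control (left) and CD90+ control over CD38+ control (right); green bars were called higher, red lower, grey not called. Members with 3 or fewer counts in a compared group have no bar, which leaves 33 bars on the left and 35 on the right, and the left side shows mostly red bars where the right shows both colours.

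Of the 13 receptors tested, 10 were lower with GATA2 overexpression and none was higher, where 39.6% and 38.0% of all genes were. CCR2, the receptor of CCL2, had 0.827, 0.742 and 0.625 CPM in GATA2 overexpression CD90+ libraries, against 20.01, 21.5 and 20.98 CPM in CD90+ control. The groups did not overlap, and CCR2 fell 28.3-fold (log2 fold change -4.82, SE 0.17, adjusted p = 6.81e-14).

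CCR1 and CX3CR1, also carried by monocytes, and CCR7 were high in CD90+ control cells. CCR1, which binds CCL3 and CCL5, averaged 3.27 ± 0.345 CPM in overexpressing and 74.5 ± 1.24 CPM in control cells and fell 22.8-fold (log2 fold change -4.51, SE 0.06, adjusted p = 7.16e-19). CX3CR1, the receptor of the anchored chemokine CX3CL1 on monocytes and microglia, averaged 5.38 ± 0.409 and 104 ± 2.85 CPM in overexpressing and control cells and fell 19.3-fold (log2 fold change -4.27, SE 0.05, adjusted p = 1.30e-19). CCR7, which guides lymphocytes and dendritic cells to lymph nodes, averaged 4.29 ± 0.379 and 68.4 ± 0.296 CPM in the same order and fell 15.9-fold (log2 fold change -3.99, SE 0.08, adjusted p = 4.95e-17). CCR3, the eotaxin receptor of eosinophils and basophils, also fell, to 1.002 ± 0.315 CPM in overexpressing against 4.57 ± 0.365 CPM in control cells (log2 fold change -2.19, SE 0.22, adjusted p = 7.18e-08), while most markers of those cells rose.

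CXCR4, the receptor of CXCL12 on blood stem cells, had 13.7, 14.8 and 13.9 CPM in GATA2 overexpression CD90+ libraries, against 65.7, 60.2 and 62.7 CPM in CD90+ control. It fell 4.45-fold (log2 fold change -2.15, SE 0.04, adjusted p = 3.88e-17), with no overlap. CXCR3, the receptor of CXCL10 and CXCL11, averaged 2.44 ± 0.280 CPM in overexpressing and 5.46 ± 0.681 CPM in control cells (log2 fold change -1.16, SE 0.11, adjusted p = 6.19e-08). CXCR5, which guides B cells into follicles, had 0, 0 and 0 counts in overexpressing and 4, 1 and 9 counts in control libraries, at least 3.39-fold lower when 3 counts are taken as the floor over the group (adjusted p = 0.00869). The third control library held 9 of the 14 counts, and the bound was 1.78-fold without it. CXCR1, a receptor of CXCL8 on neutrophils, had 2, 0 and 0 counts in overexpressing and 12, 15 and 3 counts in control libraries, and the control to overexpressing ratio was 10.9 (95% interval 2.77 to 94.2). Without the first overexpressing library the group had 0 counts, at least 4.79-fold lower. CXCR2, the other CXCL8 receptor, was not called (adjusted p = 0.139) and had 1.08, 0.344 and 0.625 CPM in GATA2 overexpression CD90+ libraries, against 0.491, 0.599 and 0.282 CPM in CD90+ control. Its libraries overlapped, and without the second overexpressing library it was called higher (log2 fold change 0.90, adjusted p = 0.016). CCR10, the receptor of CCL28, was not called at 2.66 ± 0.474 CPM in overexpressing and 2.33 ± 0.506 CPM in control cells (adjusted p = 0.491).

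**Figure D4:**
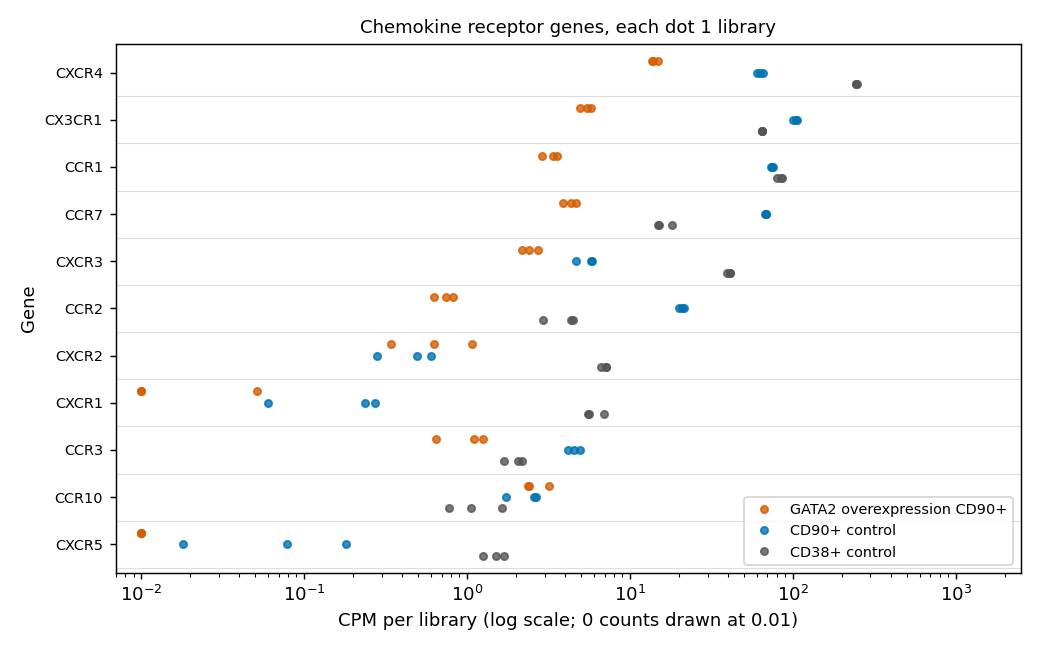
CPM of 11 receptor genes that reached 1 CPM in at least 1 group, on a log scale, each dot 1 library, with libraries of 0 counts drawn at 0.01; GATA2 overexpression CD90+ in orange, CD90+ control in blue, CD38+ control in grey. The orange dots lie to the left of the blue ones for every receptor drawn but CCR10 and CXCR2, and the blue dots lie to the left of the grey ones for the 5 CXC receptors.

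The 2 control fractions were compared next. Of the 44 members tested, 24 were higher in CD90+ control than in CD38+ control cells (54.5%, where 41.1% of all genes tested were) and 17 were lower (38.6%, where 39.3% were). The median log2 fold change was 0.34 over the members and 0.03 over all genes. At 2-fold or more, 12 members were higher (27.3%, against 22.6% of all genes) and 13 lower (29.5%, against 13.6%). These counts depend on the scaling, since with library size alone the median of all genes shifted by 0.41 on the log2 scale and 71.2% of all calls were higher instead of 51.2%, and the members' counts became 26 higher and 13 lower. With upper-quartile factors the shift was 0.26, 64.3% of calls were higher, and the members' counts were 26 and 14.

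The receptors parted by class. All 5 CXC receptors tested were lower in CD90+ control cells, whereas 6 of the 7 CC receptors tested and CX3CR1 were higher. Of all genes tested, 39.3% were lower and 41.1% higher. CXCR1 had 0.236, 0.272 and 0.0604 CPM in CD90+ control libraries, against 5.64, 6.95 and 5.51 CPM in CD38+ control. CXCR1 was 30.97-fold (log2 fold change -4.95, SE 0.34, adjusted p = 4.40e-10) lower. CXCR2 had 0.491, 0.599 and 0.282 CPM in CD90+ control libraries, against 7.18, 6.66 and 7.19 CPM in CD38+ control and was 15.1-fold (log2 fold change -3.92, SE 0.29, adjusted p = 1.73e-09) lower. Neither pair of groups overlapped, and both receptors stood above 5 CPM in every CD38+ library. CXCR5 had 0.0786, 0.0181 and 0.181 CPM in CD90+ control libraries, against 1.68, 1.52 and 1.25 CPM in CD38+ control. It was 15.9-fold (log2 fold change -3.99, SE 0.52, adjusted p = 4.49e-06) lower. CXCR4 was at 62.9 ± 2.78 CPM in CD90+ control and 246 ± 2.21 CPM in CD38+ control cells (log2 fold change -1.97, SE 0.03, adjusted p = 4.01e-18). CXCR3 was at 5.46 ± 0.681 CPM in CD90+ control and 40.6 ± 0.948 CPM in CD38+ control cells (log2 fold change -2.90, SE 0.09, adjusted p = 1.65e-14). Without the third CD90+ library the log2 fold change of CXCR5 was -4.88. The 16 neutrophil precursor markers summed to 1786 to 1809.8 CPM in CD90+ control and 5977 to 6206 CPM in CD38+ control libraries. The 15 T and NK lymphocyte markers summed to 333 to 341 and 524 to 528 CPM in CD90+ and CD38+ control libraries. Both lists were divided. In CD90+ control cells 6 of the 16 neutrophil precursor markers were higher and 9 lower. Of the 14 T and NK markers tested, 3 were higher and 6 lower. The part of both lists in the CXC receptor differences was not tested.

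CCR2 had 20.01, 21.5 and 20.98 CPM in CD90+ control libraries, against 2.95, 4.33 and 4.48 CPM in CD38+ control, without overlap, and was 5.30-fold (log2 fold change 2.41, SE 0.14, adjusted p = 4.26e-11) higher. CCR7 averaged 68.4 ± 0.296 CPM in CD90+ control and 16.03 ± 1.77 CPM in CD38+ control cells (log2 fold change 2.09, SE 0.07, adjusted p = 1.75e-14). CCR3 (4.57 ± 0.365 and 1.97 ± 0.256 CPM in CD90+ and CD38+ control cells), CCR10 (2.33 ± 0.506 and 1.16 ± 0.447 CPM) and CX3CR1 (104 ± 2.85 and 64.8 ± 0.320 CPM) were higher by 2.32-fold, 1.996-fold and 1.61-fold, with adjusted p by the same test of 3.09e-05, 0.00212 and 5.37e-11. CCR1, at 74.5 ± 1.24 CPM in CD90+ control and 83.4 ± 3.33 CPM in CD38+ control cells, was called slightly lower (log2 fold change -0.16, SE 0.04, adjusted p = 0.00295), and this direction turned with library size as the only scaling (log2 fold change 0.25) and with upper-quartile factors (0.10). Macrophage and monocyte markers were divided here, 9 of 19 higher and 9 lower, where 41.1% and 39.3% of all genes tested were. Their part in the receptor differences was not tested.

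Ligands that reached 1 CPM and were higher in CD90+ control cells were led by CCL22, with 28.9, 28.6 and 28.2 CPM in CD90+ control libraries, against 1.81, 1.92 and 2.68 CPM in CD38+ control. It was 13.3-fold (log2 fold change 3.73, SE 0.18, adjusted p = 3.77e-12) higher. CXCL14 had 10.8, 11.4 and 11.8 CPM in CD90+ control libraries, against 1.01, 0.829 and 0.851 CPM in CD38+ control, 12.6-fold (log2 fold change 3.66, SE 0.16, adjusted p = 7.61e-13) higher. In both genes every CD90+ library was above 10 CPM and every CD38+ library below 3. CXCL10 had 21.4, 24.1 and 23.3 CPM in CD90+ control libraries, against 2.42, 2.94 and 2.48 CPM in CD38+ control and was 8.78-fold (log2 fold change 3.13, SE 0.11, adjusted p = 8.95e-14) higher. CXCL12 had 1.53, 1.98 and 2.30 CPM in CD90+ control libraries, against 0.505, 0.134 and 0.526 CPM in CD38+ control. Levels of CXCL12 were low in both fractions, yet no libraries overlapped and the difference was 4.93-fold (log2 fold change 2.30, SE 0.37, adjusted p = 2.52e-05). Mesenchymal markers were higher beside it in 15 of 16 cases, where 41.1% of all genes tested were. Their sums were 1253 to 1267 CPM in CD90+ control and 51.7 to 56.3 CPM in CD38+ control libraries, and their part was not tested.

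Among ligands, the largest falls were in monocyte attractants. CCL2 had 53.4, 49.9 and 48.9 CPM in CD90+ control libraries, against 1143, 1066 and 966 CPM in CD38+ control. It was 20.9-fold (log2 fold change -4.38, SE 0.05, adjusted p = 3.58e-20) lower. CCL13 had 1, 0 and 0 counts in CD90+ control and 514, 574 and 545 counts in CD38+ control libraries, and the CD38+ to CD90+ ratio was 2212 (95% interval 396 to 87418). CCL5 had 0.177, 0.218 and 3.14 CPM in CD90+ control libraries, against 33.4, 5.16 and 5.26 CPM in CD38+ control. The first CD38+ library and the third CD90+ library stood apart from their groups, and CCL5 was 12.5-fold (log2 fold change -3.65, SE 0.87, adjusted p = 0.001) lower. Without the first CD38+ library its log2 fold change was -2.16 (adjusted p = 0.0189), and without the third CD90+ library it was -6.18 (6.40e-05). CCL7 at 0.451 ± 0.0455 CPM in CD90+ control and 4.25 ± 0.376 CPM in CD38+ control cells, CCL20 at 2.44 ± 0.247 and 19.5 ± 1.43 CPM in those groups, CXCL8 at 175 ± 2.68 and 637 ± 39.1 CPM, and CXCL5 at 6.97 ± 0.744 and 25.2 ± 2.32 CPM were lower by 9.39-fold, 7.97-fold, 3.65-fold and 3.61-fold, with adjusted p by the same test of 2.31e-08, 1.68e-12, 1.76e-15 and 6.30e-11.

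Other members differed between the fractions too, and some of these calls rested on 1 library. CXCL2 was higher in CD90+ control cells (90.8 ± 1.70 CPM, against 50.99 ± 1.39 CPM in CD38+ control; log2 fold change 0.83, SE 0.03, adjusted p = 2.52e-13), as were CXCL16 (36.04 ± 0.991 and 21.4 ± 2.08 CPM; log2 fold change 0.75, SE 0.07, adjusted p = 3.42e-08) and CCL28 (6.66 ± 0.817 and 4.53 ± 0.542 CPM; log2 fold change 0.55, SE 0.14, adjusted p = 0.00171). CCL3L1 (15.1 ± 1.14 and 10.9 ± 1.13 CPM in CD90+ and CD38+ control cells) and CCL3L3 (40.3 ± 2.90 and 25.7 ± 2.55 CPM) were also higher, with log2 fold changes of 0.46 and 0.65. CXCL1 (14.4 ± 0.393 and 18.6 ± 0.954 CPM; log2 fold change -0.37) and CXCL3 (96.4 ± 2.08 and 126 ± 7.71 CPM; -0.39) were called lower, but with library size as the only scaling the values were 0.042 and 0.025 and neither was called. CXCL11 was not called at 7.81 ± 0.573 and 7.27 ± 0.312 CPM, though library size alone or upper-quartile factors gave a call (log2 fold changes 0.51 and 0.37). Leaving out a single library ended the calls of CCL24, CCL3, CCL4, CCL4L2, CCL8, CXCL6, XCL1 and XCL2. For CCL4, with 6.76, 12.5 and 13.8 CPM in CD90+ control libraries, against 29.5, 81.4 and 6.06 CPM in CD38+ control, the second CD38+ library carried the difference: without it the log2 fold change was -0.69 (adjusted p = 0.148) in place of -1.82. The call of CCL3, at -0.63, was near the threshold. It was lost without that library (-0.14, 0.538), without any 1 of the CD90+ libraries (0.0503 to 0.103), and with 6 other settings (library size only, upper-quartile, the 1 CPM filter, the fit on 2 groups, DESeq2 and limma voom, adjusted p 0.0602 to 0.434). CCL4 was not called with limma voom either (0.111). CCL4L2 was at 0.35 and was no longer called without the first CD90+ library (0.13, adjusted p = 0.365), the third CD38+ library (0.16, 0.26) or the first CD38+ library (0.39, 0.0506), or with DESeq2 (0.123). CCL24, at 2.68 ± 0.710 and 1.77 ± 0.229 CPM in CD90+ and CD38+ control cells, lost its call without the second CD90+ library (log2 fold change 0.38, adjusted p = 0.173), the second CD38+ library (0.53, 0.0707) or the third (0.58, 0.0532). CXCL6 at 0.23 was lost without the first CD38+ library (0.0596) or the third CD90+ library (0.0651), and XCL1 at 0.33 without any of 4 libraries, the second or the third CD38+ or the first or the third CD90+ (adjusted p 0.0557 to 0.156) or with no filter on low counts (0.0500423). XCL2, at 0.90, was not called without any single 1 of the 6 libraries (0.0505 to 0.12) or with DESeq2 (0.0537), and CCL8, at 1.91, not without the first or the second CD38+ or the first or the third CD90+ library (0.0515 to 0.087).

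GATA2 overexpression CD90+ cells were also set against CD38+ control cells, a comparison that shares libraries with both others. Of 44 members tested, 31 were lower (70.5%, where 39.9% of all genes were) and 8 higher (18.2%, where 43.3% were), and the median log2 fold change was -2.46 over the members and 0.07 over all genes. At 2-fold or more, 28 were lower (63.6%, against 21.2%) and 6 higher (13.6%, against 23.0%). The members called higher were CCL28, CCR4, CCR10, CX3CL1, CXCL2, CXCL11, CXCL14 and XCL1.

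The deepest falls were in CC ligands and CXC receptors. CCL2 had 5.42, 5.27 and 5.33 CPM in GATA2 overexpression CD90+ libraries, against 1143, 1066 and 966 CPM in CD38+ control, 198-fold (log2 fold change -7.63, SE 0.07, adjusted p = 7.72e-22) lower. CCL20 had 0.0517, 0.106 and 0.136 CPM in GATA2 overexpression CD90+ libraries, against 21.1, 18.6 and 18.7 CPM in CD38+ control and was 194-fold (log2 fold change -7.60, SE 0.21, adjusted p = 1.70e-15) lower. CCL13 had 0.0775, 0.0530 and 0.0544 CPM in GATA2 overexpression CD90+ libraries, against 13.7, 15.3 and 13.6 CPM in CD38+ control and was 219.7-fold (log2 fold change -7.78, SE 0.25, adjusted p = 1.32e-14) lower. Each of these was separated in all libraries by far more than the spread within a group. CCL7 had 0, 0.106 and 0 CPM in GATA2 overexpression CD90+ libraries, against 4.55, 4.38 and 3.83 CPM in CD38+ control, 111-fold (log2 fold change -6.80, SE 0.45, adjusted p = 2.97e-10) lower, and at least 107-fold lower without the second overexpressing library, the only one with counts. CXCR1 had 2, 0 and 0 counts in overexpressing and 212, 260 and 220 counts in CD38+ libraries, a CD38+ to overexpressing ratio of 341 (95% interval 94.002 to 2820.1), and was at least 149.6-fold lower without the first overexpressing library. CXCR5 had 0 counts in overexpressing libraries and 63, 57 and 50 counts in CD38+ libraries, at least 55.8-fold lower (adjusted p = 4.96e-07), or 36.7-fold to 60.4-fold with 1 library left out. CXCR4 and CXCR3 were 17.4-fold and 16.6-fold lower, with adjusted p of 1.94e-21 and 5.88e-16 by the same test.

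Among members that reached 1 CPM in a group, rises against CD38+ control cells were moderate. CCR4 and CX3CL1 had larger log2 fold changes on few counts and are described further on. CXCL14 had 3.31, 4.19 and 4.05 CPM in GATA2 overexpression CD90+ libraries, against 1.01, 0.829 and 0.851 CPM in CD38+ control, 4.28-fold (log2 fold change 2.10, SE 0.16, adjusted p = 2.00e-09) higher. CXCL2 had 141, 137 and 141 CPM in GATA2 overexpression CD90+ libraries, against 51.9, 51.7 and 49.4 CPM in CD38+ control, 2.74-fold (log2 fold change 1.45, SE 0.03, adjusted p = 7.99e-17) higher. CCL28 had 13.2, 10.9 and 10.3 CPM in GATA2 overexpression CD90+ libraries, against 4.68, 3.93 and 4.98 CPM in CD38+ control and was 2.54-fold (log2 fold change 1.34, SE 0.14, adjusted p = 1.20e-07) higher. In these 3 genes the overexpressing libraries all lay above the CD38+ ones. CCR10 had 2.38, 3.21 and 2.39 CPM in GATA2 overexpression CD90+ libraries, against 1.06, 0.775 and 1.65 CPM in CD38+ control and was 2.27-fold (log2 fold change 1.18, SE 0.26, adjusted p = 5.34e-04) higher, XCL1 had 6.41, 5.64 and 5.93 CPM in GATA2 overexpression CD90+ libraries, against 3.75, 3.37 and 2.98 CPM in CD38+ control and was 1.78-fold (log2 fold change 0.83, SE 0.14, adjusted p = 4.39e-05) higher, and CXCL11 had 8.89, 8.88 and 10.9 CPM in GATA2 overexpression CD90+ libraries, against 7.55, 7.33 and 6.93 CPM in CD38+ control and was 1.32-fold (log2 fold change 0.40, SE 0.12, adjusted p = 0.00506) higher. None of these libraries overlapped. CXCL3 was not called (131 ± 2.60 CPM in overexpressing and 126 ± 7.71 CPM in CD38+ cells, adjusted p = 0.153), although the other scalings by library size and upper quartile gave calls of higher. CCL5 was lower with a log2 fold change of -3.36, which was -1.87 (adjusted p = 0.0383) without the first CD38+ library, and CCL4 with one of -5.95, which was -4.81 (7.50e-07) without the second CD38+ library and not called with limma voom (0.0571).

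Ligands were also set beside their receptors. CXCL12 and its receptor CXCR4 had 0.106 ± 0.0551 and 14.1 ± 0.569 CPM in overexpressing, 1.93 ± 0.383 and 62.9 ± 2.78 CPM in CD90+ control and 0.388 ± 0.221 and 246 ± 2.21 CPM in CD38+ control cells. CD38+ cells thus had the most receptor RNA and CD90+ control cells the most ligand RNA. CCL2 and CCR2 showed another arrangement, with the ligand highest in CD38+ control cells and the receptor highest in CD90+ control cells: CCL2 and CCR2 were at 5.34 ± 0.0774 and 0.731 ± 0.101 CPM in overexpressing, 50.7 ± 2.35 and 20.8 ± 0.744 CPM in CD90+ control and 1058 ± 88.7 and 3.92 ± 0.843 CPM in CD38+ control cells. CXCL8 was highest in CD38+ control cells together with its receptors CXCR1 and CXCR2. CCL28 rose with overexpression while its receptor CCR10 was not called. For CX3CR1, with 104 ± 2.85 CPM in CD90+ control cells, the ligand CX3CL1 stayed under 1 CPM in all 3 groups, and CXCR6, the receptor of CXCL16, did so too.

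Members on chromosome 3 and chromosome 17 could be read as neighbours (GENCODE 29, GRCh38). On chromosome 3, CCR1 (46201709 to 46208396), CCR2 (46353734 to 46360928) and CCR3 (46163604 to 46266706) lie near each other, and all 3 fell with GATA2 overexpression in CD90+ cells. Of the 5 CC ligands in the first group on chromosome 17, CCL1, CCL2, CCL7 and CCL8 fell and CCL13 was called higher. In the second group there, 5 of the 6 tested fell (CCL18, CCL3, CCL3L1, CCL4 and CCL4L2) and CCL5 was not called. CCL22 and CX3CL1, neighbours on chromosome 16, both fell. Of all genes tested, 39.6% were called lower with overexpression against CD90+ control cells.

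The 18 members below 1 CPM in every group rest on few reads. CCL1, a ligand of CCR8, had 12, 135 and 22 counts over the 3 libraries of GATA2 overexpression CD90+, CD90+ control and CD38+ control cells, and was lower with overexpression and higher in CD90+ than in CD38+ control cells. CX3CL1 had 6, 91 and 0 counts in those groups, and was at least 22.4-fold higher in CD90+ than in CD38+ control cells (adjusted p = 3.28e-05). The third CD90+ library held 52 of the 91 counts, and the bound was 14.1-fold without it and 14.6-fold without the third CD38+ library. Its call against CD38+ control cells with overexpression (adjusted p = 0.0485) was lost when any of the 6 libraries was left out (0.0649 to 0.0829). CCL18, a product of macrophages, had 2, 56 and 62 counts and CCL8 2, 72 and 14, and both were called lower with overexpression than in CD90+ control cells. CCR4, the receptor of CCL17 and CCL22, had 24, 64 and 4 counts, was not called with overexpression against CD90+ control cells, and lost its call against CD38+ control cells without the second (adjusted p = 0.0649) or the third CD38+ library (0.0676) or the third overexpressing library (0.0772). XCL2, a near copy of XCL1, had 62, 104 and 41 counts, and CCL25, a thymic ligand of CCR9, had 23, 32 and 24.

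The 11 members not tested were these. CCL17 had 5, 20 and 0 counts in GATA2 overexpression CD90+, CD90+ control and CD38+ control cells, CCL21 0, 20 and 0, and CCL23 43, 11 and 6. CCL26 had 2, 0 and 12, CXCL9 0, 5 and 0, and CXCL13 0, 21 and 0 counts in the same groups. CXCL17 had 2, 7 and 14, CCR9 18, 18 and 0, CXCR6 15, 12 and 2, and XCR1 0, 0 and 8. CCR8 had 0 counts in all libraries. A count of 0 over a group allows up to 0.0265 CPM in GATA2 overexpression CD90+, 0.0193 CPM in CD90+ control and 0.0261 CPM in CD38+ control cells. The count table held no row under the symbols CCL11, CCL14, CCL15, CCL16, CCL19, CCL27 and CCR6, so these genes were not analysed here.

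Platelet chemokines, which the symbol rule leaves out, rose or were not called. PF4V1 rose with GATA2 overexpression to 4.67 ± 0.306 CPM, against 3.04 ± 0.340 CPM in CD90+ control cells, and PF4 rose too (log2 fold change 0.90, SE 0.03, adjusted p = 5.95e-14). PPBP, a platelet-stored ligand of CXCR2, was not called at 783 ± 83.7 CPM in overexpressing and 838 ± 18.4 CPM in CD90+ control cells (adjusted p = 0.0995), and all 3 were higher in CD90+ than in CD38+ control cells. Of the 15 megakaryocyte and platelet markers, 9 rose with overexpression and 3 fell, where 38.0% and 39.6% of all genes tested did. Their sums were 2308 to 2373 CPM in overexpressing and 1341 to 1359.7 CPM in CD90+ control libraries. The part of these markers in the platelet chemokines was not tested.

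Atypical receptors bind chemokines without G protein signalling. With overexpression ACKR2 rose, ACKR3 fell and ACKR1 was not called, while ACKR4 was not tested. ACKR3, a scavenger of CXCL12, averaged 9.46 ± 0.773 CPM in GATA2 overexpression CD90+, 20.1 ± 0.634 CPM in CD90+ control and 2.40 ± 0.447 CPM in CD38+ control cells (log2 fold change -1.09, SE 0.11, adjusted p = 8.89e-08 with overexpression). ACKR1, the Duffy antigen of red cells and venules, stayed under 1 CPM in every group. Of 3 further genes, CCRL2 was not called and PITPNM3 and CMKLR1 fell. CMKLR1, the receptor of chemerin on macrophages and dendritic cells, averaged 0.347 ± 0.174, 53.5 ± 1.38 and 13.9 ± 1.32 CPM in GATA2 overexpression CD90+, CD90+ control and CD38+ control cells (log2 fold change -7.27, SE 0.14, adjusted p = 3.90e-17 with overexpression).

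Of the 30 signalling partners tested, 14 were higher and 15 lower with overexpression (where 38.0% and 39.6% of all genes were), and 22 were lower in CD90+ than in CD38+ control cells (39.3% of all genes). RAC2, a GTPase of blood cell movement, averaged 399.8 ± 12.4, 150.5 ± 2.02 and 1186 ± 15.2 CPM in GATA2 overexpression CD90+, CD90+ control and CD38+ control cells, and rose 2.66-fold with overexpression (adjusted p = 2.30e-17). RGS1 and RGS2, which shorten G protein signals, fell 2.49-fold and 2.33-fold with overexpression, with adjusted p of 2.07e-17 and 1.72e-17. Of the 10 genes that cut or retain chemokines, 8 fell with overexpression (39.6% of all genes). MMP9, a secreted protease that trims CXC ligands, averaged 4.07 ± 0.0790 CPM in overexpressing, 114 ± 2.83 CPM in CD90+ control and 136 ± 6.48 CPM in CD38+ control cells (log2 fold change -4.81, SE 0.05, adjusted p = 4.22e-20 with overexpression). CTSG, the neutrophil protease cathepsin G, moved the other way, at 85.7 ± 2.10, 11.4 ± 0.450 and 70.1 ± 3.66 CPM in the 3 groups (log2 fold change 2.91, SE 0.05, adjusted p = 7.85e-18).

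Several members share sequence or place with another gene, so their values are less certain. Of the 50-base stretches in the transcripts of XCL2, 46.3% also occur in XCL1, and the share is 20.1% for CCL4 in CCL4L2 and 9.88% for CCL3 in CCL3L1. GENCODE 29 has no gene named CCL3L3, so no length or position is given for it. CXCL1, CXCL2 and CXCL3 share up to 5.73% of such stretches and CXCR1 and CXCR2 up to 5.13%, and no stretch of 150 bases was shared in any of these pairs. Exons of CCL3, CCL3L1, CCR10, CXCL14, CXCL16 and CXCR5 overlap those of a gene on the opposite strand, and those of CXCL6 a pseudogene on its own strand. The libraries were strand-specific, but whether strand was used in counting is not stated by any source used here.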

How the data were processed

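Members, gene lists and tests were chosen with earlier results of these data known. Per the labels' protocols, libraries kept strand and were read in pairs of 150 bases, and the authors' deposited table of counts, in whole reads for each gene symbol, was the input. HISAT2, featureCounts and the hg38 build are named in the submitters' processing notes, while versions, settings, annotation and the handling of reads with several places are not stated by any source used here. Among values of 1 to 20, 57.4% to 59.0% were even in each library, so some read pairs may have been counted as 2 reads, which makes counting intervals too narrow.

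Groups were taken from the labels. No column was left unused, and replicate libraries differed by a chi-square of 4.08 to 8.28 per degree of freedom, so none was the same library deposited again. All 9 libraries entered 1 model of group means (edgeR 4.0.16 under R 4.3.3). Scaling was by TMM, filterByExpr removed low genes at a minimum count of 10 and a minimum total of 15, and p-values were adjusted by Benjamini-Hochberg. TMM factors were 0.978 to 0.981 in GATA2 overexpression CD90+, 1.16 to 1.17 in CD90+ control and 0.876 to 0.877 in CD38+ control libraries. The biological coefficient of variation was 6.72%. Standard errors were obtained by dividing each log2 fold change by the root of its F statistic. Against a group with 0 counts, fold bounds took 3 counts over the whole group as the floor. With 1 to 3 counts, ratios carry exact Clopper-Pearson intervals (95%). Neither covers more than counting error.

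Of the members, 1 is counted in the totals but not otherwise reported here. Values are given for every other member with a mean of at least 1 CPM in a group, and in each comparison the 6 largest rises and 6 largest falls among called members with libraries that did not overlap are given in full. Alternatives were other scalings (RLE, library size, upper quartile), no filter or 1 CPM in 3 libraries, DESeq2 1.42.0, limma voom 3.58.1, a fit on the 2 groups alone, a replicate block, a 2-fold minimum, and each library left out. Lengths and positions are from GENCODE 29 (54 of 55 members matched) and promoters from RefSeq (GRCh38.p14, 41 members matched). Of 152 symbols in the marker lists, 150 were matched. In the pathway lists, 30 of 32 signalling genes and 3 of 4 platelet chemokine names were.

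The marker lists whose sums were not given beside a result summed as follows. Erythroid markers came to 633 to 725 CPM in GATA2 overexpression CD90+, 1083 to 1106 CPM in CD90+ control and 397 to 406 CPM in CD38+ control libraries. Endothelial markers came to 1547 to 1564, 1088 to 1116 and 897 to 967 CPM in the same groups, and epithelial and endoderm markers to 731 to 739, 1169 to 1181 and 360.1 to 376 CPM. Mast cell, basophil and eosinophil markers came to 1252 to 1349, 427 to 436 and 5959.5 to 6191 CPM. Markers with 0 counts in a group were CMA1 and MMP8 in GATA2 overexpression CD90+, MRGPRX2 in CD90+ control, and CMA1, CEACAM8, GP5, AHSP, EMCN, POSTN and KRT7 in CD38+ control cells.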

Additional observations from a re-analysis of the deposited data

How the results depend on the processing

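The counts of members called stayed within 1.5 times of those reported under every alternative except a 2-fold minimum, which left 12 instead of 24 higher in CD90+ control against CD38+ control cells and 1 instead of 6 higher with GATA2 overexpression against CD90+ control cells. With each library left out in turn, 20 to 22 members were higher and 15 to 17 lower in CD90+ against CD38+ control, 6 to 8 higher and 32 lower with GATA2 overexpression against CD90+ control, and 7 to 8 higher and 31 to 32 lower with GATA2 overexpression against CD38+ control cells. Among members called, directions turned in CD90+ against CD38+ control cells only, for CCR1 (log2 fold change 0.25 with library size only, 0.10 with upper-quartile factors), CXCL1 (0.042) and CXCL3 (0.025, both with library size only). CCL5, CCR10 and CCL25, not called with overexpression against CD90+ control cells, had values on both sides of 0 over the alternatives (-0.22 to 2.83, -0.06 to 0.29 and -0.26 to 0.15). Library size alone moved the median of all genes by 0.41 in CD90+ against CD38+ control, by -0.25 with overexpression against CD90+ control (35.5% of calls higher instead of 49.0%) and by 0.16 against CD38+ control cells, which follows from leaving out the TMM factors. The replicate numbers did not pair the libraries: correlations of the deviations of same-numbered libraries ran from -0.0516 to 0.0153, and libraries did not each correlate best with their own number. With the replicate block the counts were 22 higher and 16 lower in CD90+ against CD38+ control, 6 and 32 with overexpression against CD90+ control, and 8 and 31 against CD38+ control cells. CCL3, XCL1 and XCL2 were not called with it in CD90+ against CD38+ control cells (adjusted p = 0.0642, 0.0539 and 0.0692). Depth limits the 18 members below 1 CPM, and groups of 3 libraries are too small to test a single library as an outlier.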
